A study of Rattus norvegicus with 115 samples.

Results

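Potassium channel genes are described here across 9L brain tumours and the opposite brain hemisphere of rats, with and without irradiation. The set holds every gene whose symbol starts with Kcn among array probe sets that carry a single gene symbol. There are 75 such genes among the 14217 genes measured. For the 31 of them with more than 1 probe set, the probe set with the highest mean log2 level stands for the gene.

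The study implanted cells of the rat glioblastoma line 9L in the right caudate nucleus of Fisher rats, and irradiated the rats 10 days later. Microbeam radiation therapy (MRT) delivers synchrotron X-rays as an array of narrow beams, with 400 Gy in the beam paths (peak) and 18 Gy between them (valley). The broad beam (BB) is a uniform field, given at 17,4 Gy (a decimal comma, as in the labels). Transcripts were measured on 115 Affymetrix rat arrays, 59 of tumour samples and 56 of contralateral samples, the latter from the hemisphere opposite the tumour, and 55 of the 60 rats gave both. The untreated groups also carry the 9L implant, so their contralateral samples come from tumour-bearing brains. Untreated tumours were sampled in 5 rats at 6 h, 4 at 48 h and 4 at 8 d, MRT tumours in 9, 8, 7 and 4 rats at 6 h, 48 h, 8 d and 15 d, and BB tumours in 6, 4, 4 and 4 rats. The contralateral groups held 5, 4 and 4 untreated, 9, 7, 6 and 4 MRT and 6, 3, 4 and 4 BB rats. There was no untreated group at 15 d. All tumours derive from a single cell line, and each tumour sample holds whatever brain and infiltrating cells were dissected with it.

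Potassium channels let potassium ions leave or enter cells along their gradient and so set the resting potential and end action potentials. The voltage-gated families (Kcna, Kcnb, Kcnc, Kcnd, Kcnh, Kcnq) open on depolarization and are most abundant in neurons, where cytoplasmic partners (Kcnab, Kcnip) and silent subunits (Kcng, Kcns, Kcnv) modify them. Inward rectifiers (Kcnj) and two-pore channels (Kcnk) carry resting and background currents in neurons, glia and vessels. The calcium-activated and sodium-activated channels (Kcnma, Kcnn, Kcnt) couple membrane potential to intracellular ions, and Kcnn4 among them is known from blood cells, microglia and glioma cells more than from neurons. The Kcne proteins are single-pass membrane subunits that associate with voltage-gated pores.

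Levels are given as log2 of the deposited intensity, a scale on which a difference of 1 is 2-fold. The level of a probe set depends on its sequence, so no gene's level is set against another's. Of the 75 genes, 41 lie in the dimmest 30% of all genes measured, below a mean of 6.90. Differences come from limma fits of group means over all 14217 genes, shown with the standard error (SE) and with a p adjusted over all genes by the Benjamini-Hochberg method. A gene was called at an adjusted p under 0.05. Within a comparison, groups are called separate when no value of one lies within the range of the other. Counts of separate groups are given for the Kcn genes only, without the share over all genes. They therefore cannot be read as particular to the Kcn genes. Every array comes from a different rat within its tissue, and all 35 BB arrays carry a label set of their own, so within a tissue the broad beam and that label set cannot be told apart.

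The tissue labels were checked on markers. The mean over 25 neuron markers was 9.77 ± 1.10 (SD, n = 13) in untreated tumours, with a range of 7.72 to 11.06, against 11.63 ± 0.15 (n = 13) in untreated contralateral samples. The proliferation markers averaged 10.52 ± 0.41 and 6.21 ± 0.62 in the same groups. Neuron markers were therefore far from absent in the tumour samples, and they varied with time and treatment: their untreated tumour means were 10.47 ± 0.42 at 6 h, 10.32 ± 0.54 at 48 h and 8.33 ± 0.62 at 8 d, against 9.74 ± 0.79 in MRT tumours and 8.99 ± 1.46 in BB tumours at 8 d. In whole-tissue samples, fewer cells of a type and less RNA per cell cannot be told apart. Some arrays stood apart from their groups. They were MRT tumours of rats 37 and 38 at 8 d, with the highest neuron markers of their group, the BB tumour of rat 57 at 8 d, with low brain transcripts, and the untreated contralateral sample of rat 18 at 48 h.

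For 52 of the 75 genes the RefSeq promoter table for the rat build GRCr8 gave a window. The 250 bases before the start are shown for 4 genes on which the results turn: Kcne3 and Kcnj8, which rose with growth of untreated tumours and were lower after both beams, and Kcnd2 and Kcnk13, which were higher after MRT. Capitals mark matches to 5-base cores of hypoxia-responsive elements, ACGTG and GCGTG, searched on both strands, so that CACGC marks GCGTG on the other strand. The windows lie at chr1:163935785-163936034 on the plus strand (Kcne3), chr4:177246549-177246798 on the minus strand (Kcnj8), chr4:50742235-50742484 on the plus strand (Kcnd2) and chr6:124971559-124971808 on the plus strand (Kcnk13).
Kcne3: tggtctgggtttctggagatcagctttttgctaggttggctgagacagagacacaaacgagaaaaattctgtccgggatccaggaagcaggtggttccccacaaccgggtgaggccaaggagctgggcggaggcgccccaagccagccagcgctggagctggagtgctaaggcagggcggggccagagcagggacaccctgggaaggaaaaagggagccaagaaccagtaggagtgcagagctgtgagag
Kcnj8: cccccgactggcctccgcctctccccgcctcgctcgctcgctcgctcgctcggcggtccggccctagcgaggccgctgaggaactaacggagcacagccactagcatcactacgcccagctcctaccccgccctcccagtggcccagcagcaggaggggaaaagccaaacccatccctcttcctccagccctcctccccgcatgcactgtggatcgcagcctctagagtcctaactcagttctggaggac
Kcnd2: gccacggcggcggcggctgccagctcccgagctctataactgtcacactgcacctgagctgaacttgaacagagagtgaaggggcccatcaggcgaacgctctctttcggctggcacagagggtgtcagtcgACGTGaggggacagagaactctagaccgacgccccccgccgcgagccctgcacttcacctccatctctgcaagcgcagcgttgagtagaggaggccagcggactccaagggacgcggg
Kcnk13: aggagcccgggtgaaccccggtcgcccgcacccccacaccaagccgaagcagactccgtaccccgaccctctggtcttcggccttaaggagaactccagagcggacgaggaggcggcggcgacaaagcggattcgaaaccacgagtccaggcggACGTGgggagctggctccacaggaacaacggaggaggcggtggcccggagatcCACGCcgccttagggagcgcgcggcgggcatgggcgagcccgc
The Kcne3 window held 7 CpG dinucleotides at a GC content of 59.6%, the lowest of the 4, and no match. The Kcnj8 window held 18 CpG (GC 66.8%) and also no match. The Kcnd2 window held 20 CpG (GC 64%) and 1 match, ACGTG at 118 to 114 bases before the start. The Kcnk13 window was the richest, with 29 CpG (GC 69.6%), and held ACGTG at 96 to 92 bases and GCGTG on the minus strand at 43 to 39 bases before the start. Among 33469 windows of the same length in the table, 16.6% held ACGTG and 25.9% held GCGTG on either strand. The 58 windows of the Kcn genes held ACGTG in 8 cases and GCGTG in 22. The AP-1 motif TGANTCA was in 2 of the 58 and in 6.34% of all windows, and the cyclic AMP response motif TGACGTCA in 0 of the 58 and in 1.59% of all. None of these motifs contains another, and a match describes letters only.

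The first comparison asks which potassium channel transcripts differ between the tumour and the opposite hemisphere without irradiation. Nearly all were lower in the tumour: 63 genes were lower, 5 were higher and 7 were not called. The background was high, since 81.1% of all genes were called here, but it was even in direction, with 40.5% of all genes higher and 40.6% lower. The median difference of the 75 genes was -1.05, against -0.03 over all genes. In 21 of the called Kcn genes the 13 tumour and the 13 contralateral arrays were separate. The neuron markers moved the same way, 25 of 25 called lower with a median of -1.95, and their part in the channel differences was not tested.

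**Figure D1:**
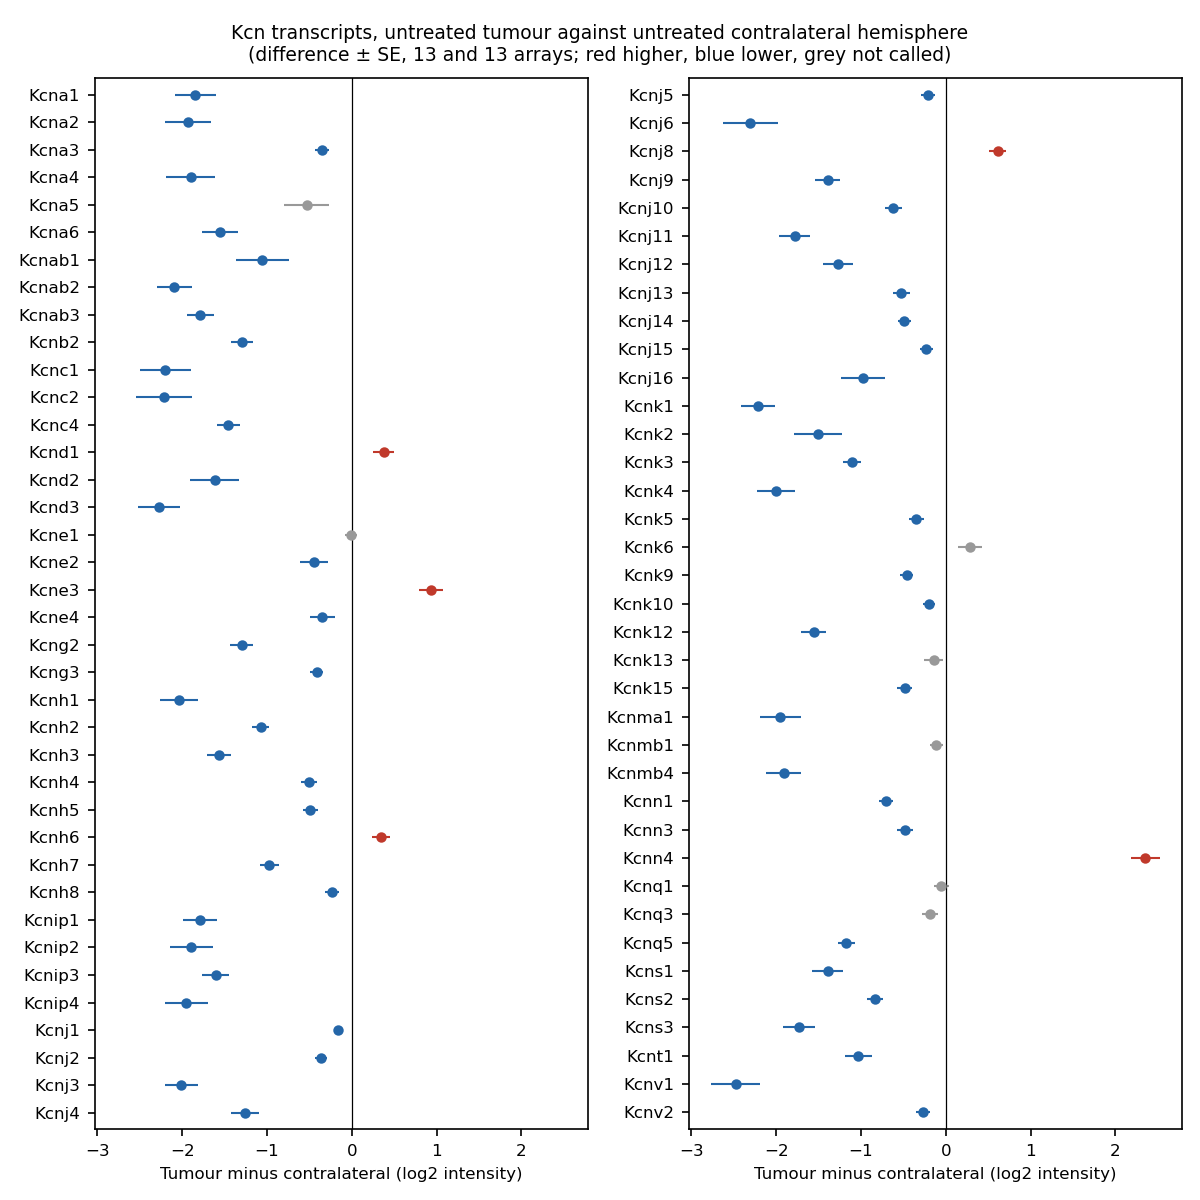
Difference between untreated tumour and untreated contralateral samples for each of the 75 Kcn genes, as log2 tumour minus contralateral (horizontal axis) with bars of 1 SE, over 13 arrays of each tissue. Red marks genes called higher, blue genes called lower and grey genes not called; Kcnn4 at 2.35 stands apart on the right, and most genes lie left of zero down to -2.48 for Kcnv1.

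Kcnn4, an intermediate-conductance calcium-activated channel, differed most among the 5 higher genes. Its lowest, median and highest levels were 6.15, 6.86 and 8.57 in untreated tumours and 4.46, 4.81 and 5.29 in untreated contralateral samples. Every tumour array was above every contralateral array, and the difference was 2.35 ± 0.17 (adjusted p = 2.93e-23). Kcne3, a membrane subunit that associates with Kcnq and Kcnc pores, was higher by 0.93 ± 0.14 (adjusted p = 5.96e-09), with overlapping groups. This averages unequal times, since its untreated tumour means were 6.53 at 6 h, 6.75 at 48 h and 8.77 at 8 d. Its second, dimmer probe set was called the opposite way, at -0.31 ± 0.08 (adjusted p = 0.000271). Kcnj8, the pore of ATP-sensitive channels in vascular mural cells, was higher by 0.61 ± 0.10 (adjusted p = 7.13e-08), from 5.88, 6.11 and 6.93 (lowest, median, highest) in contralateral samples to 6.41, 6.70 and 7.64 in tumours. The A-type pore Kcnd1 (0.37 ± 0.13) and the ether-a-go-go related pore Kcnh6 (0.34 ± 0.11) completed the higher genes, and both overlapped.

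Among 24 voltage-gated pores, 19 were lower and 2 higher, with a median of -1.23. The fast-spiking pores of the Kcnc family were all lower: Kcnc2 at -2.21 ± 0.33 and Kcnc1 at -2.20 ± 0.30, both with separate groups, and Kcnc4 at -1.46 ± 0.13. Kcnc1 ranged from 6.25 to 10.40 in tumours and from 10.64 to 11.44 in contralateral samples. The wide tumour range includes a difference between times. Tumours lay between 8.81 and 10.40 at 6 h, 8.81 and 9.84 at 48 h, and 6.25 and 8.08 at 8 d. Of the Kcnd family, which carries the somatodendritic A-type current, Kcnd3 was lower, at -2.27 ± 0.25 with separate groups and Kcnd2 at -1.62 ± 0.29. The axonal pores Kcna1 (-1.84 ± 0.24) and Kcna2 (-1.93 ± 0.28) were lower too. Kcna3, a pore prominent in T cells, was lower, at only -0.35 ± 0.08. Its probe set averaged 4.25 over all arrays, near the bottom of the scale, so little can be read from the size of this difference. Kcnh1, the ether-a-go-go pore, was lower, at -2.04 ± 0.23 with separate groups, and Kcnh2 at -1.08 ± 0.10. Kcnq5, a pore of the M-current that restrains neuronal firing, was lower, at -1.17 ± 0.10, from 11.25 to 11.73 in contralateral samples to 9.47 to 11.12 in tumours. Its relatives were not called, at -0.19 ± 0.09 for Kcnq3 and -0.05 ± 0.09 for Kcnq1.

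All 7 cytoplasmic partners were lower, with a median of -1.79. Kcnab2, a beta subunit of Kcna channels, was lower, at -2.09 ± 0.20 and its groups were separate, at 7.38 to 10.67 in tumours and 10.88 to 11.95 in contralateral samples. The calcium-sensing Kcnip proteins, partners of Kcnd pores, were lower, between -1.61 ± 0.16 (Kcnip3) and -1.95 ± 0.26 (Kcnip4). The 7 silent subunits were also all lower, with a median of -1.30. Kcnv1, which modifies Kcnb pores, had the lowest difference of all 75 genes, -2.48 ± 0.29 (adjusted p = 6.06e-13). Its levels ran from 5.64 to 10.16 in tumours and from 10.30 to 11.27 in contralateral samples, without overlap.

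Inward rectifiers were lower in 14 of 15 cases, with a median of -0.62. The G protein-gated subunits Kcnj6 (-2.30 ± 0.33) and Kcnj3 (-2.01 ± 0.20) and the ATP-sensitive pore Kcnj11 (-1.78 ± 0.18) had separate groups. The glial rectifiers differed less, with Kcnj16 at -0.98 ± 0.26 and Kcnj10, the main astrocyte pore, at -0.62 ± 0.09. The Kcnj10 probe set was near the bottom of the scale in both tissues, at 3.91 to 4.46 in tumours and 4.25 to 5.73 in contralateral samples, so little can be read from its size. Kcnj13, a rectifier of the choroid plexus, was lower, at -0.52 ± 0.10. Kcne2, a subunit of the same epithelium, was lower, at -0.44 ± 0.17, while another of its probe sets was called higher at 0.69.

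Of 11 two-pore channels 9 were lower, with a median of -0.48. Kcnk1 (-2.21 ± 0.20) and the mechanosensitive Kcnk4 (-2.00 ± 0.22) had separate groups, and the related Kcnk2 was lower, at -1.50 ± 0.28. The 2 that were not called were Kcnk6 (0.28 ± 0.14) and the microglial channel Kcnk13 (-0.14 ± 0.12). Among the calcium-activated and sodium-activated channels, Kcnma1, the large-conductance pore, was lower, at -1.95 ± 0.24, and Kcnmb4, its neuronal beta subunit, at -1.91 ± 0.21. The small-conductance pores Kcnn1 (-0.70 ± 0.09) and Kcnn3 (-0.48 ± 0.10) were lower by less than their relative Kcnn4 was higher.

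Untreated tumours changed with growth. Between 6 h and 8 d 36 Kcn genes changed, 5 up and 31 down, where 29.2% of all genes were called, 16.0% higher and 13.2% lower. The median was -0.52 for the Kcn genes and 0.11 for all genes, and in 32 of the 36 the groups were separate. The largest rise was in Kcne3. Its levels were 6.67, 6.39, 6.43, 6.51 and 6.67 at 6 h, 6.91, 7.10, 6.23 and 6.77 at 48 h, and 8.81, 8.69, 8.58 and 9.00 at 8 d. The 4 late tumours were thus above all 9 earlier ones, and the difference from 6 h was 2.23 ± 0.30 (adjusted p = 7.32e-07).

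Kcnn4 behaved alike, at 6.85, 6.69, 6.91, 6.23 and 6.86 at 6 h and 8.10, 8.28, 8.57 and 8.07 at 8 d, a rise of 1.55 ± 0.35 (adjusted p = 0.00139). Kcnj8 rose by 0.73 ± 0.20 (adjusted p = 0.00489), to 6.97, 7.06, 7.52 and 7.64 from a range of 6.41 to 6.70. Kcnk6, a two-pore channel found in many peripheral tissues, rose by 1.06 ± 0.30 with overlapping groups, and Kcnh6 by 0.58 ± 0.22 (adjusted p = 0.0368). The Kcnh6 call was lost without 1 array, with an adjusted p of 0.113.

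The falls took in 11 voltage-gated pores, 6 of 7 cytoplasmic partners, 3 silent subunits, 4 inward rectifiers, 4 two-pore channels and 3 calcium-activated or sodium-activated channels. Kcnv1 (-2.82 ± 0.66), Kcnc2 (-2.82 ± 0.76), Kcnk2 (-2.66 ± 0.62), Kcna2 (-2.62 ± 0.63), Kcnc1 (-2.57 ± 0.69) and Kcnd2 (-2.39 ± 0.63) fell most, all with separate groups. Kcnk2 lay between 7.77 and 9.45 at 6 h and was at 5.78, 5.95, 7.02 and 6.21 at 8 d. Of the neuron markers, 24 of 25 were called lower in the same comparison, as were 10 of 11 astrocyte and 9 of 10 oligodendrocyte markers (medians -1.40 and -2.05). Of the T and NK cell markers 5 of 10, and of the macrophage markers 3 of 10, were called higher. The part of these other lists in the channel differences was not tested. With the neuron-marker mean of each array as a covariate, 2 Kcn genes were called, where 2.29% of all genes were: Kcne3 at 1.42 ± 0.27 (adjusted p = 0.0016) and Kcnj8 at 0.84 ± 0.23 (adjusted p = 0.0336). The untreated contralateral samples changed less between the same times, with 2 Kcn genes called lower against 1.86% of all genes (1.28% higher and 0.577% lower). These were Kcnk12 (-0.83), a two-pore channel, and Kcnma1 (-0.41).

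After MRT, the early tumours showed no called change in any Kcn gene. At 6 h limma called 0 of the 75, while 1 had an unadjusted p under 0.05, and 1.42% of all genes were called. At 48 h it called 0, with 6 under an unadjusted 0.05 and 2.35% of all genes called. At 8 d 37 Kcn genes differed from untreated tumours, 30 higher and 7 lower, where 47.8% of all genes were called, 21.8% higher and 26.1% lower. The median was 0.52 for the Kcn genes and -0.04 over all genes, and 17 of the 37 had separate groups. The 7 MRT tumours and the 4 untreated tumours also differed in cell type markers: 18 of 25 neuron, 10 of 11 striatal neuron, 9 of 10 oligodendrocyte, 10 of 10 macrophage and 10 of 10 T and NK cell markers were called higher. Of 11 astrocyte markers, 8 were higher and 1 lower (median 1.42), and 10 of 10 proliferation markers were lower (median -1.49). Their part in the channel differences was not tested, apart from the neuron markers as a covariate.

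**Figure D2:**
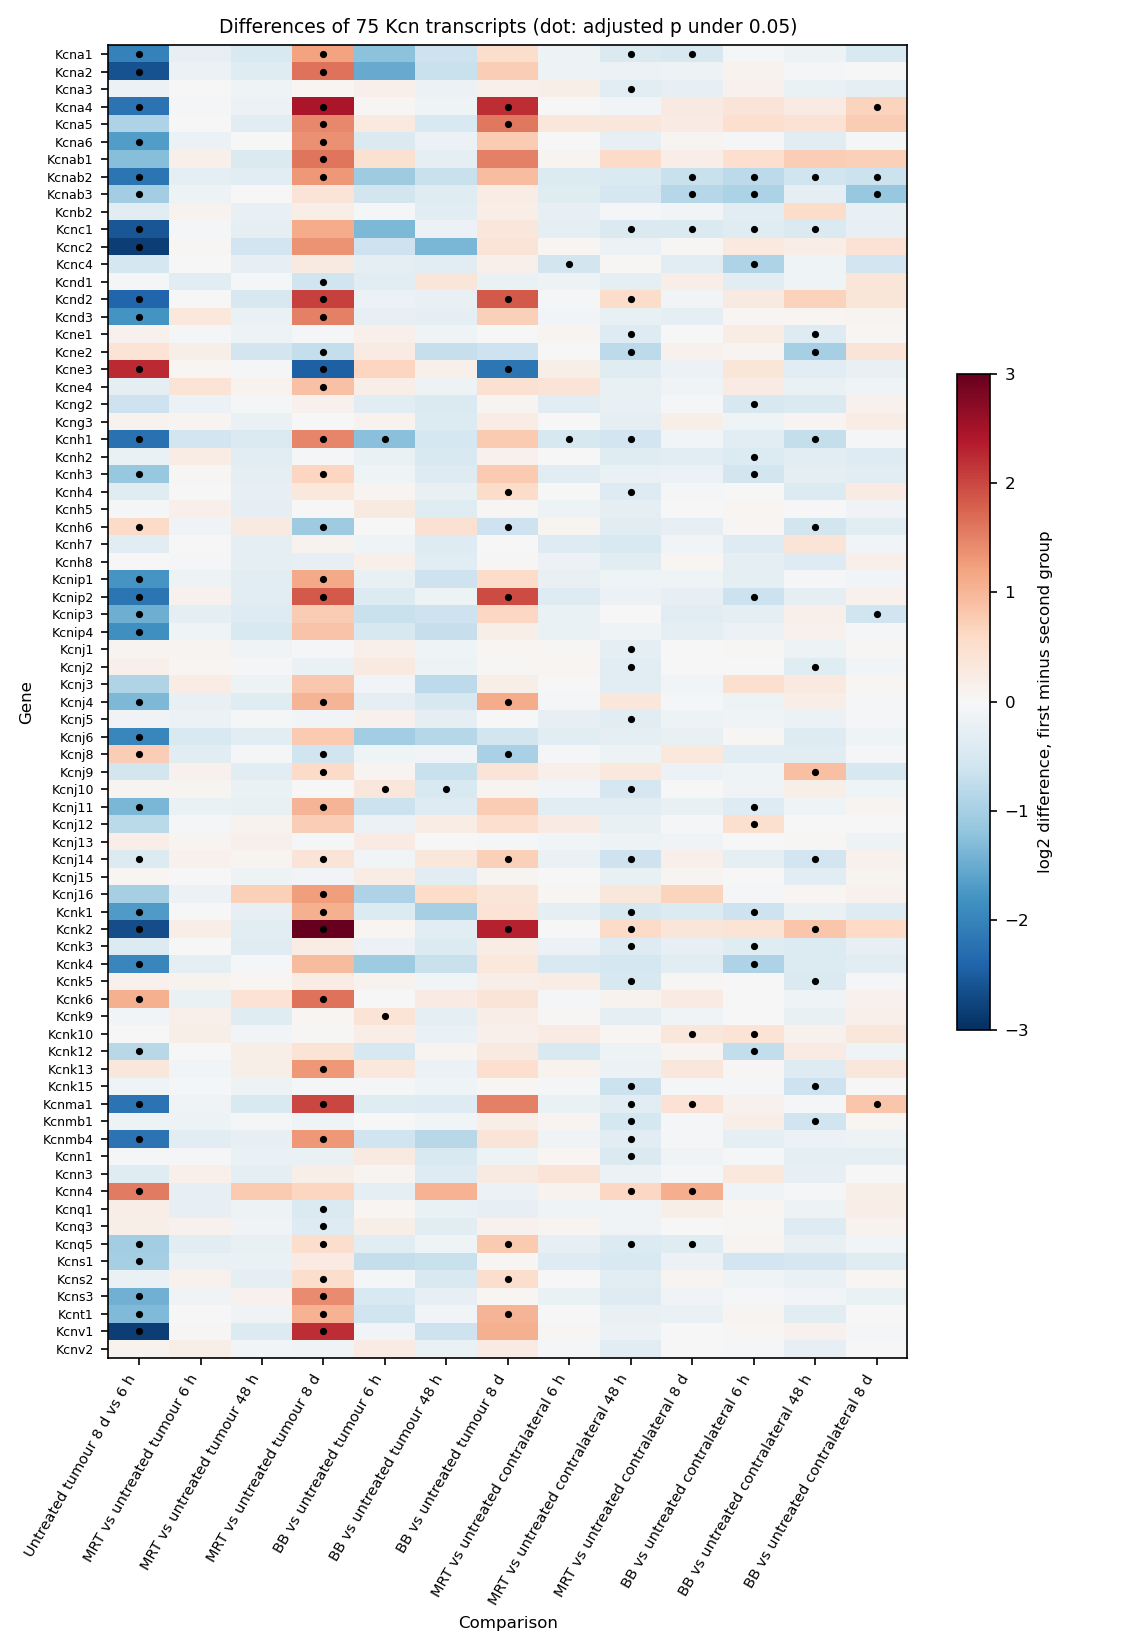
Log2 differences of the 75 Kcn genes (rows) in 13 comparisons (columns): growth of untreated tumours from 6 h to 8 d, and MRT or BB against untreated at 6 h, 48 h and 8 d in tumour and contralateral samples. Colour runs from -3 (blue) to 3 (red) and a black dot marks an adjusted p under 0.05; the MRT tumour column at 8 d holds 37 dots, and the MRT tumour columns at 6 h and 48 h none.

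The largest rise was in Kcnk2, a mechanosensitive and lipid-sensitive background channel. Untreated tumours at 8 d were at 5.78, 5.95, 7.02 and 6.21, and the 7 MRT tumours ran from 8.48 over a median of 8.84 to 10.17. The groups were separate and differed by 2.98 ± 0.58 (adjusted p = 3.36e-05). A second, dimmer probe set gave 0.40 ± 0.15 and was also called. Untreated tumours at 6 h lay between 7.77 and 9.45, a range that overlaps that of the MRT tumours at 8 d.

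Kcnk6 and Kcnk13 rose too, from a different starting pattern. Kcnk6 was at 7.07, 7.80, 7.71 and 7.37 in untreated tumours at 8 d and between 8.48 and 9.94 after MRT, with a median of 9.13. The groups were separate and differed by 1.64 ± 0.28 (adjusted p = 3.9e-06), and its other probe set was called the same way at 0.54 ± 0.17. Kcnk13, which microglia use to carry a background current, was at 6.04, 6.43, 6.57 and 5.91 in untreated tumours and between 7.10 and 7.93 after MRT. It rose by 1.29 ± 0.22 (adjusted p = 3.23e-06) with separate groups. The macrophage-marker mean was 8.61 in the untreated and 11.04 in the MRT tumours at 8 d, and the microglia-marker mean 9.19 and 8.72. The 7 measured microglia markers went both ways, with 3 called higher, 2 lower and a median of 0.28. The part of these cells in the Kcnk6 and Kcnk13 differences was not tested. Of the other two-pore channels, Kcnk1 rose by 1.06 ± 0.41, and 7 of the 11 were not called.

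**Figure D3:**
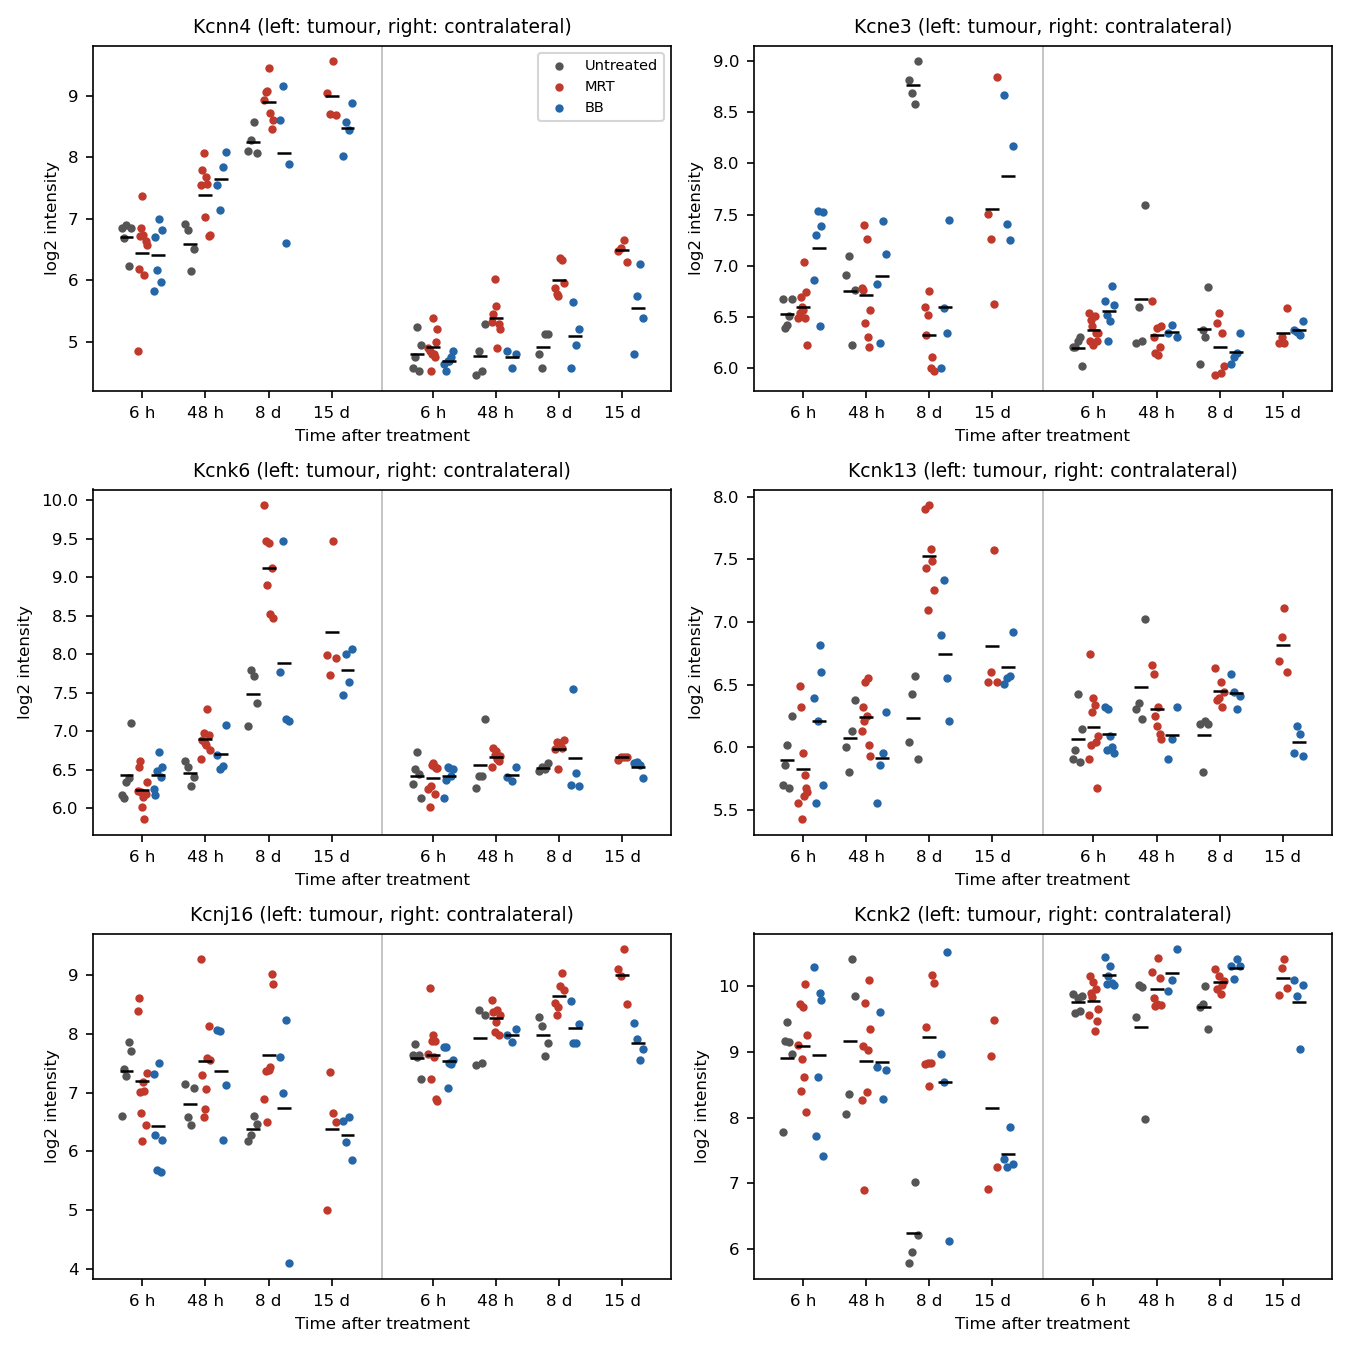
Log2 level on every array (dots) with group means (bars) for Kcnn4, Kcne3, Kcnk6, Kcnk13, Kcnj16 and Kcnk2 by time, with tumour samples left and contralateral samples right; untreated samples are grey, MRT red and BB blue. In tumours at 8 d the untreated dots of Kcne3 lie at 8.58 to 9.00, above all MRT dots (5.98 to 6.75), and the MRT dots of Kcnk6, Kcnk13 and Kcnk2 lie above all untreated dots.

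Of the voltage-gated pores, 10 rose and 4 fell. Kcna4, a rapidly inactivating pore, went from 5.09 to 6.41 in untreated tumours to 7.45 to 8.85 after MRT, a difference of 2.46 ± 0.61 (adjusted p = 0.000865). Kcnd2 rose by 2.05 ± 0.59 (adjusted p = 0.00348); untreated tumours were at 6.69, 6.39, 8.43 and 7.85 and MRT tumours between 8.34 and 10.28, so the groups overlapped narrowly. Its second probe set was called at 1.65 ± 0.56. Kcna2 (1.63 ± 0.59), Kcnd3 (1.52 ± 0.53), Kcnh1 (1.47 ± 0.47), Kcna6 (1.37 ± 0.46) and Kcna1 (1.21 ± 0.51) rose with overlapping groups, and Kcna5 (1.45 ± 0.50) with separate ones. No gene of the Kcnc family was called: Kcnc2 was at 1.34 ± 0.71 (adjusted p = 0.116), Kcnc1 at 1.10 ± 0.64 (adjusted p = 0.153) and Kcnc4 at 0.28 ± 0.24. Kcna3 was at 0.07 ± 0.12 and not called, in tumours in which the T and NK cell markers had a median difference of 2.49. Its probe set was near the bottom of the scale in both groups, with means of 4.07 after MRT and 4.00 in untreated tumours. Little can therefore be read from the lack of a call.

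The 4 pores that fell were Kcnh6, Kcnd1, Kcnq1 and Kcnq3. Kcnh6 was between 6.70 and 6.95 in untreated tumours and between 5.64 and 6.07 after MRT, a difference of -1.06 ± 0.20 (adjusted p = 2.9e-05). Kcnd1 fell by 0.59 ± 0.21 with separate groups, but without untreated rat 30 its adjusted p was 0.0506. Kcnq1 was at -0.44 ± 0.13 and Kcnq3 at -0.38 ± 0.16. Kcnq5 moved the other way, at 0.52 ± 0.20.

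Cytoplasmic partners rose in 4 of 7 cases, with a median of 1.14: Kcnip2 by 1.84 ± 0.53, Kcnab1 by 1.61 ± 0.62, Kcnab2 by 1.29 ± 0.41 and Kcnip1 by 1.14 ± 0.42. The call of Kcnab1 was lost without untreated rat 30 (adjusted p = 0.0681) and without MRT rats 37 and 38 (adjusted p = 0.112). Silent subunits rose in 3 of 7 cases, namely Kcnv1 (2.21 ± 0.61), Kcns3 (1.41 ± 0.37) and Kcns2 (0.52 ± 0.15). Calcium-activated and sodium-activated channels rose in 3 of 7 cases. The large-conductance pore Kcnma1 rose by 2.00 ± 0.52 (adjusted p = 0.00151) with separate groups, though its other probe sets, at 0.22 and 0.46, were not called. Its beta subunit Kcnmb4 rose by 1.30 ± 0.44, and the sodium-activated pore Kcnt1 by 1.05 ± 0.31. Kcnn4, already high in untreated tumours at 8 d, was at 0.65 ± 0.32 and not called (adjusted p = 0.0945).

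Among membrane accessory subunits, Kcne3 showed the largest fall of all Kcn genes. Against 8.81, 8.69, 8.58 and 9.00 in untreated tumours, the 7 MRT tumours were at 6.60, 6.32, 6.52, 6.75, 6.00, 6.11 and 5.98. The groups were separate and differed by -2.44 ± 0.28 (adjusted p = 2.38e-09). The MRT range overlaps that of untreated tumours at 6 h (6.39 to 6.67) and of untreated contralateral samples at 8 d (6.04 to 6.79). The dimmer second probe set of Kcne3 was at -0.14 ± 0.12 and not called. Kcne2 fell by 0.72 ± 0.22 with separate groups (adjusted p = 0.0547 without untreated rat 27), and Kcne4 rose by 0.87 ± 0.28.

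Of the inward rectifiers, 5 rose and 1 fell. Kcnj16 rose by 1.26 ± 0.53 (adjusted p = 0.0464). Its untreated levels were 6.17, 6.29, 6.60 and 6.46 and its MRT levels 6.89, 7.37, 6.49, 7.39, 7.44, 9.02 and 8.85, the last pair in rats 37 and 38, which also had the highest neuron markers. Kcnj11 (1.02 ± 0.37), Kcnj4 (1.01 ± 0.32), Kcnj9 (0.57 ± 0.23) and Kcnj14 (0.39 ± 0.13) were the others that rose. Kcnj8 fell by 0.60 ± 0.18 (adjusted p = 0.00623), from 6.97, 7.06, 7.52 and 7.64 to 6.83, 6.34, 6.00, 6.46, 6.89, 7.13 and 7.22. Of the mural cell markers, 3 of 6 were called lower in the same comparison (Pdgfrb, Cspg4 and Acta2) and none higher, and the mural mean was 8.02 ± 0.19 in untreated and 6.92 ± 0.14 in MRT tumours; their part in the Kcnj8 difference was not tested. Abcc9, the sulfonylurea receptor that pairs with Kcnj8, was at -0.44 and not called (adjusted p = 0.216).

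The channel calls were then read with the neuron-marker mean of each array as a covariate. For MRT against untreated tumours at 8 d, 12 Kcn genes were called, 5 higher and 7 lower, against 32.8% of all genes, and 9 of the 12 were among the 37 called without it. The median over the 75 genes went from 0.52 to 0.01. Kcne3 (-1.90 ± 0.23, adjusted p = 2.85e-08), Kcnk6 (1.66 ± 0.30, adjusted p = 1.98e-05), Kcnk13 (1.23 ± 0.23, adjusted p = 3.95e-05), Kcnk2 (1.55 ± 0.38, adjusted p = 0.000992) and Kcnj8 (-0.67 ± 0.20, adjusted p = 0.00662) were called in both fits. Kcnn4 was called with the covariate only, at 1.07 ± 0.32 (adjusted p = 0.00738). Kcnd2 at 0.58 (adjusted p = 0.252), Kcnma1 at 0.53 (adjusted p = 0.0965) and Kcnj16 at 0.02 (adjusted p = 0.978) were not called with it. Without the tumours of rats 37 and 38, 17 of the 75 Kcn genes were called for MRT, 11 higher and 6 lower. In that fit 38.9% of all 14217 genes were called, 2456 higher and 3074 lower. Kcnk2 was then at 2.63, Kcne3 at -2.33 and Kcnk6 at 1.77.

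**Figure D4:**
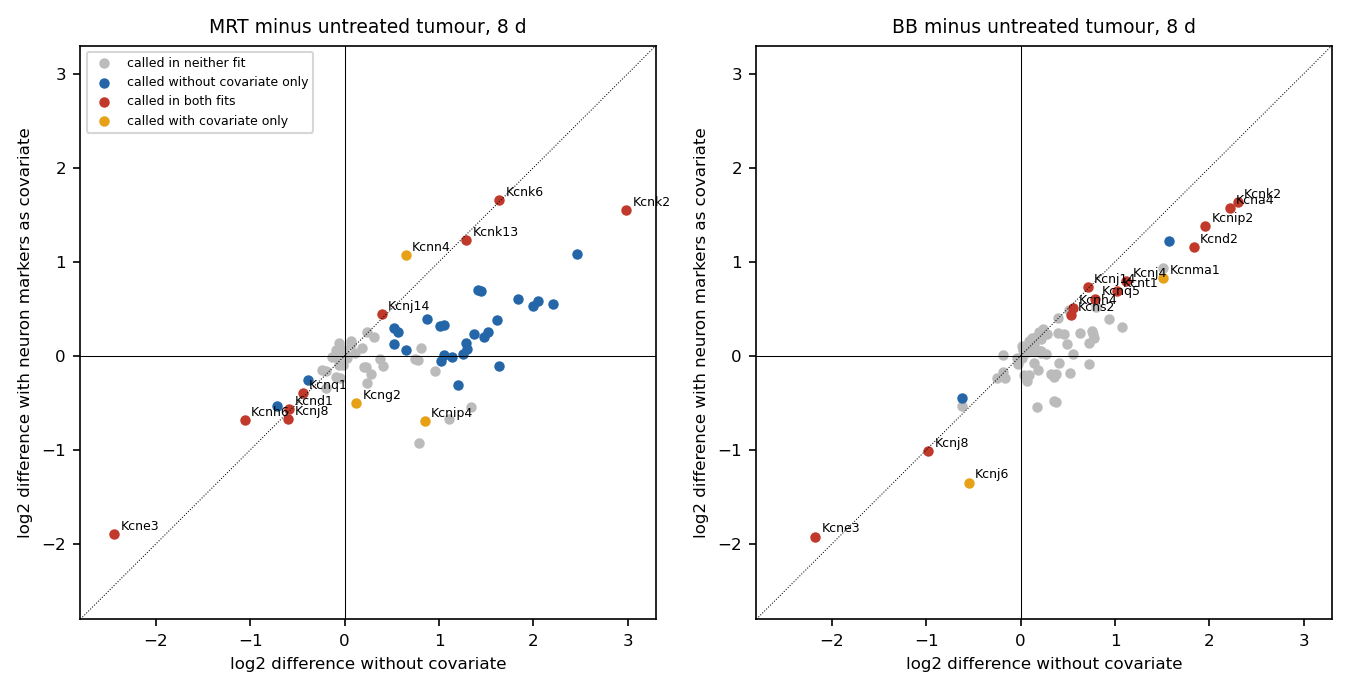
Log2 difference from untreated tumours at 8 d for each Kcn gene without (horizontal axis) and with (vertical axis) the neuron-marker mean per array as a covariate, MRT on the left and BB on the right; colours show in which of the fits a gene was called. In the MRT panel most genes drop towards zero on the vertical axis, while Kcne3 stays at -1.90, Kcnk6 at 1.66 and Kcnk13 at 1.23.

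After the broad beam, 3 Kcn genes were called in tumours at 6 h, where of all genes 10.3% were higher and 7.09% lower: Kcnk9 at 0.42 ± 0.11, Kcnj10 at 0.33 ± 0.10 and Kcnh1 at -1.26 ± 0.46. The means were 4.85 after BB and 4.43 untreated for Kcnk9, and 4.54 and 4.20 for Kcnj10. Both probe sets are near the bottom of the scale, so little can be read from these differences. At 48 h the single call was Kcnj10 at -0.46 ± 0.12 (adjusted p = 0.023), with all 4 BB arrays at 3.81, close to the lowest values of the array, where 2.60% of all genes were called (1.37% higher and 1.22% lower). At 8 d 14 were called, 11 higher and 3 lower, where 22.9% of all genes were (8.36% higher and 14.5% lower), with a median of 0.24 over the 75. This number moved with single arrays: it was 3 without BB rat 56, 6 without BB rat 54, 25 without BB rat 57, 6 without untreated rat 27 and 8 without untreated rat 28. Here and in later counts with single arrays left out, the share of all genes called is not given. Such shifts therefore cannot be read as particular to the Kcn genes.

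Kcne3 fell after the broad beam as well. The 4 BB tumours were at 6.00, 6.58, 6.34 and 7.45, all below the untreated tumours, a difference of -2.17 ± 0.31 (adjusted p = 5.28e-06). Kcnj8 fell by 0.98 ± 0.21 (adjusted p = 0.000876), to 5.86, 6.46, 6.69 and 6.27, with separate groups. The BB mural-marker mean was 7.23 ± 0.37, and the same 3 of 6 mural markers as after MRT were called lower; their part was not tested here either. Kcnh6 fell by 0.62 ± 0.23 (adjusted p = 0.0424). Kcne3 and Kcnj8 kept their calls with each array left out in turn, and with the neuron-marker covariate they were at -1.92 ± 0.25 and -1.01 ± 0.21. With that covariate 14 Kcn genes were called, 12 of them shared with the 14 above, where 23.0% of all genes were. In this comparison 2 of 25 neuron markers were called higher (median 0.68), and 10 of 11 striatal neuron markers (median 3.25). The covariate is the mean of the first list only, so the part of the striatal markers in the channel differences was not tested.

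Among the higher genes after the broad beam, Kcnk2 was again first, at 2.30 ± 0.65 (adjusted p = 0.00926). Its BB levels were 8.97, 8.54, 10.52 and 6.13, so 3 tumours were far above the untreated ones and the tumour of rat 57 was within their range. Kcnd2 showed the same split, at 9.86, 8.89, 11.15 and 6.79, with a difference of 1.84 ± 0.66. Kcna4 (2.21 ± 0.69), Kcnip2 (1.96 ± 0.60), Kcna5 (1.58 ± 0.56) and Kcnt1 (1.02 ± 0.35) also overlapped. Separate groups were found for Kcnj4 (1.12 ± 0.36), Kcnq5 (0.79 ± 0.23), Kcnj14 (0.71 ± 0.14), Kcnh4 (0.55 ± 0.17) and Kcns2 (0.54 ± 0.17). Without BB rat 56 the adjusted p of Kcnj4, Kcnq5, Kcnh4 and Kcns2 was 0.159, 0.110, 0.0837 and 0.0900. Kcnk6 at 0.40 ± 0.31 and Kcnk13 at 0.51 ± 0.24 were not called. The striatal neuron markers averaged 6.95 in untreated, 9.98 in MRT and 10.03 in BB tumours at 8 d.

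Both treatments share the untreated tumours as controls, so the beams were compared with each other directly. MRT and BB tumours differed in 2 Kcn genes at 6 h against 15.7% of all genes (5.54% higher and 10.2% lower), Kcnh2 at 0.42 and Kcnj10 at -0.25. The Kcnj10 means, 4.29 after MRT and 4.54 after BB, were near the bottom of the scale, so little can be read from its difference. At 48 h limma called 0, with 2 under an unadjusted p of 0.05 and 0% of all genes called. At 8 d 2 were higher after MRT, against 1.27% of all genes (0.985% higher and 0.281% lower): Kcns3 by 1.35 ± 0.37 (adjusted p = 0.0497) and Kcnk6 by 1.24 ± 0.28 (adjusted p = 0.0181). The 7 MRT tumours had Kcnk6 at 9.94, 9.47, 8.90, 9.45, 8.52, 9.13 and 8.48, and the BB tumours at 7.77, 9.47, 7.16 and 7.13. One BB tumour, that of rat 55, lay among the MRT tumours and the other 3 among the untreated ones. Both calls were absent without any one of BB rats 54, 56 and 57, and 4 genes were called without BB rat 55. With the neuron-marker covariate 3 genes were called, where 2.74% of all genes were: Kcnk6, Kcnk13 and Kcnn4 (1.06 ± 0.30). Kcns3 was then at 0.97 and not called (adjusted p = 0.0619). Of the T and NK cell markers 5 of 10 and of the macrophage markers 2 of 10 were called higher after MRT than after BB, and their part was not tested. At 15 d limma called 0, with 2 under an unadjusted p of 0.05, where 3.05% of all genes were called.

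By 15 d some of these levels had moved again. In MRT tumours 11 Kcn genes differed between 15 d and 8 d, 4 higher and 7 lower, against 27.9% of all genes (16.1% higher and 11.8% lower). Kcne3 rose by 1.23 ± 0.28 (adjusted p = 0.00103), to 7.51, 7.26, 6.63 and 8.84, which left 3 of the 4 below the untreated tumours of 8 d. Kcnh6 rose by 0.95 ± 0.20 (adjusted p = 0.000611). Kcnj8 fell further, with a difference of -0.96 ± 0.18 (adjusted p = 0.000173), to 5.61, 5.75, 5.55 and 6.02, below every tumour array of the untreated groups. The mural cell markers split in this comparison: Pdgfrb, Cspg4, Acta2 and Notch3 were called higher, and Rgs5 (-1.18 ± 0.29) and Abcc9 (-1.17 ± 0.29), the partner of Kcnj8, lower. Their part in the Kcnj8 difference was not tested. Kcnk6 (-0.84) and Kcnk13 (-0.72) fell from their levels of 8 d. The tumour of rat 42 kept Kcnk6 at 9.47 while the other 3 were at 7.99, 7.73 and 7.95. Kcns3 (-1.77 ± 0.37) and Kcne4 (-1.07) fell with separate groups. The count of 11 was 5 without rat 40 and 7 without rat 43. In BB tumours 2 Kcn genes differed between 15 d and 8 d, against 1.70% of all genes (1.06% higher and 0.633% lower): Kcne3 rose by 1.28 ± 0.31 (adjusted p = 0.0192), to 8.67, 7.41, 7.25 and 8.17, and Kcnj14 fell by 0.78 ± 0.14 (adjusted p = 0.001).

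The opposite hemisphere was not the implanted one but received radiation. Whether its samples held tumour cells was not tested. After MRT 2 Kcn genes were lower at 6 h against 8.22% of all genes (5.36% higher and 2.86% lower), Kcnc4 (-0.55) and Kcnh1 (-0.49). At 48 h 24 were called, 3 higher and 21 lower, where 32.2% of all genes were (13.2% higher and 19.0% lower), with a median of -0.29. Kcnn4 (0.62 ± 0.19), Kcnk2 (0.58) and Kcnd2 (0.56) were higher, although a second probe set of Kcnk2 was called lower. Among the 21, Kcnj10 (-0.50), Kcnn1 (-0.44) and Kcnq5 (-0.42) had separate groups, and Kcne2 (-0.78), Kcnk15 (-0.66) and Kcnj14 (-0.63) did not. That count rested on an untreated sample: without the untreated contralateral array of rat 18, 6 Kcn genes were called, and 0 when only the groups compared entered the fit.

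At 8 d 8 Kcn genes differed in the contralateral samples after MRT, 3 higher and 5 lower, where 7.91% of all genes were called (5.71% higher and 2.19% lower). Kcnn4 changed most. The untreated samples were at 4.81, 4.58, 5.13 and 5.13, and the 6 MRT samples at 5.88, 5.78, 5.75, 6.36, 6.34 and 5.95. The groups were separate and differed by 1.10 ± 0.20 (adjusted p = 7.72e-05). By group means, Kcnn4 in untreated contralateral samples was 4.81, 4.78 and 4.91 at 6 h, 48 h and 8 d, and after MRT 4.92, 5.40, 6.01 and 6.49 at 6 h, 48 h, 8 d and 15 d. The macrophage-marker means followed the same order after MRT, at 6.74, 7.61, 8.11 and 8.52, against 5.91, 6.08 and 6.78 in untreated samples, and 7 of 10 macrophage markers were called higher at 8 d with a median of 1.42. Of 7 microglia markers 0 were called higher and 2 lower at 8 d after MRT (median -0.45). In untreated contralateral samples 5 of 10 macrophage markers were called higher at 8 d than at 6 h (median 0.86), while Kcnn4 was not called. The part of these lists in the Kcnn4 difference was not tested.

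The other genes higher at 8 d after MRT were Kcnma1 at 0.44 ± 0.11 (adjusted p = 0.00538) and Kcnk10, a relative of Kcnk2, at 0.34. Averaged over all its probe sets, Kcnma1 was at 0.21 and not called (adjusted p = 0.759). Lower were the beta subunits Kcnab3 (-0.85 ± 0.24) and Kcnab2 (-0.68 ± 0.19), the pores Kcna1 (-0.48) and Kcnc1 (-0.42), and Kcnq5 (-0.35). Without untreated rat 28 the adjusted p of Kcnab3, Kcnab2 and Kcna1 was 0.155, 0.0924 and 0.211, and without rat 39 that of Kcnq5 was 0.0910. The whole count was 3 without untreated rat 28 and 4 without untreated rat 29 or 30. The glial rectifier Kcnj16 was at 0.68 ± 0.23 (adjusted p = 0.0570) and Kcnk13 at 0.35 ± 0.15 (adjusted p = 0.151), neither called.

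After the broad beam, 15 Kcn genes were called in contralateral samples at 6 h, 2 higher and 13 lower, where 21.6% of all genes were (8.92% higher and 12.6% lower). Separate groups were found for Kcnk4 (-0.94 ± 0.21), Kcnab3 (-0.94), Kcnc4 (-0.93 ± 0.16, adjusted p = 3.82e-05), Kcnab2 (-0.79 ± 0.17), Kcnk12 (-0.74) and Kcnip2 (-0.65). Kcnj12 (0.47) and Kcnk10 (0.41) were higher. Of 25 neuron markers, 10 were called lower in this comparison and 0 higher, with a median of -0.29, and of 7 microglia markers 4 were lower. Their part was not tested. At 48 h 13 were called, 2 higher and 11 lower, where 21.6% of all genes were (6.46% higher and 15.1% lower), but 0 without the untreated sample of rat 18. Kcne2 (-1.0), Kcnh1 (-0.70) and Kcnmb1 (-0.61) were the lowest with separate groups, and the G protein-gated subunit Kcnj9 was higher by 0.90. At 8 d 5 were called, against 5.94% of all genes (3.24% higher and 2.70% lower). Kcnma1 was at 9.52, 9.59, 9.65 and 9.41 in untreated and at 10.54, 10.38, 10.25 and 10.34 in BB samples, a rise of 0.84 ± 0.12 (adjusted p = 3.43e-05). Kcna4 rose by 0.67 ± 0.21, and Kcnip3 (-0.60), Kcnab2 (-0.64 ± 0.20) and Kcnab3 (-1.13 ± 0.27) fell, all with separate groups. In the same samples 6 of 11 striatal neuron markers (median 1.94) and 3 of 6 choroid plexus markers (median 1.66) were called higher, and 3 of 25 neuron markers lower. Their part was not tested. Without untreated rat 28 a single Kcn gene was called.

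In the direct comparison of the beams in contralateral samples, 3 Kcn genes were called at 6 h, 1 at 48 h, 2 at 8 d and 6 at 15 d. Of all genes, 5.39% were called at 6 h (3.81% higher and 1.58% lower), 1.94% at 48 h (1.67% higher and 0.274% lower), 3.02% at 8 d (2.60% higher and 0.422% lower) and 5.87% at 15 d (4.11% higher and 1.75% lower). At 6 h Kcnh2 was higher after MRT by 0.41, and Kcnma1 (-0.35) and Kcnq5 (-0.33) were lower. At 48 h the pore Kcnh7 was lower, at -0.85. Kcnn4 was higher after MRT at 8 d, by 0.91 ± 0.20 (adjusted p = 0.00319), with the BB samples at 4.58, 5.64, 4.95 and 5.21, and Kcnma1 was lower, at -0.39. The Kcnn4 call at 8 d was lost without BB rat 54 (adjusted p = 0.0651). With all arrays at 8 d, 7 of 10 macrophage markers were called higher after MRT than after BB and 0 lower (median 1.16). Of 7 microglia markers 0 were called. The part of these lists was not tested.

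At 15 d the genes higher after MRT than after the broad beam were Kcnj16, Kcnn4, Kcnk13 and Kcnn3. Kcnj16, which with Kcnj10 forms the heteromeric rectifier of astrocytes, was at 9.10, 8.99, 9.45 and 8.52 after MRT and at 8.19, 7.92, 7.56 and 7.74 after BB, a difference of 1.16 ± 0.25 (adjusted p = 0.00227). Kcnk13 was at 6.69, 6.88, 7.11 and 6.60 against 5.95, 6.17, 6.11 and 5.93, a difference of 0.78 ± 0.16 (adjusted p = 0.00127). Kcnn4 was at 6.48, 6.52, 6.66 and 6.30 against 4.81, 5.75, 6.27 and 5.39, a difference of 0.93 ± 0.22 (adjusted p = 0.00476), and without BB rat 58 its adjusted p was 0.0526. In all 3 genes every MRT sample was above every BB sample. Kcnn3 was higher by 0.62 ± 0.18 (adjusted p = 0.0244), and the G protein-gated subunit Kcnj6 lower, at -0.56. The count was 3 without any one of MRT rats 41 and 42 and BB rats 58 and 59. The macrophage-marker means were 8.52 after MRT and 7.72 after BB, and the astrocyte-marker means 11.81 and 11.60. Of 10 macrophage markers 6 were called higher and 1 lower after MRT than after BB (median 1.09). Of 11 astrocyte markers 2 (median 0.12), and of 7 microglia markers 1 (median -0.01), were called higher and 0 lower. Of 10 proliferation markers 3 were called lower after MRT than after BB and 0 higher (median -1.24). Of 11 striatal neuron markers 2 (median 1.26), and of 25 neuron markers 3 (median 0.04), were called higher and 0 lower. The part of these lists was not tested. No untreated samples were taken at 15 d.

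Whether the responses differed between the tissues was tested as an interaction. At 8 d the MRT difference was itself different in tumour and contralateral samples for 32 Kcn genes, 27 with a higher and 5 with a lower value in tumour, against 37.0% of all genes (15.4% higher and 21.6% lower). Without rats 37 and 38 there were 16, 12 higher and 4 lower, all 16 among those 32. In that fit 28.2% of all genes were called, 1576 higher and 2438 lower. For the broad beam at 8 d there were 7, 5 higher and 2 lower, against 7.76% of all genes (2.24% higher and 5.52% lower). At 6 h limma called 0 for MRT, with 2 under an unadjusted p of 0.05 (0.886% of all genes), and 0 for BB, with 6 under an unadjusted p of 0.05 (1.53%). Kcne3 differed between tissues for both beams at 8 d, by -2.27 (adjusted p = 6.20e-08) for MRT and -1.96 (adjusted p = 0.000262) for BB.

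Genes that work with these channels were read from lists. Of 16 measured potassium channel partners, which include scaffolds, receptors and secreted modulators, 15 were lower in untreated tumours than in contralateral samples, with a median of -1.59. The ligand Lgi1 (-2.34 ± 0.30) and its receptor Adam22 (-2.14 ± 0.25), which position Kcna channels at axons, were among them, as were Dpp10 (-2.23 ± 0.24), a partner of Kcnd pores, and Rgs7 (-2.32 ± 0.26). After MRT at 8 d 9 of the 16 were higher and none lower, with a median of 1.14: Adam22 by 2.10 ± 0.54, Lgi1 by 2.05 ± 0.65 and the axonal protein Cntnap2 by 1.85 ± 0.53. After the broad beam 1 was called, Cntnap2 at 1.81 ± 0.60.

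Other channels of excitable membranes followed. Of 13 sodium channel genes, 10 were lower and 1 higher in untreated tumours, and 8 were higher and 1 lower after MRT at 8 d, led by the subunit Scn4b at 3.89 ± 0.68. All 17 calcium channel genes were lower in untreated tumours and 8 were higher after MRT at 8 d, with Cacna2d3 at 1.92 ± 0.51. The 3 pacemaker channel genes were lower in untreated tumours (Hcn2 at -0.63 ± 0.09), and none was called after MRT or BB at 8 d. Of 12 potassium pumps and cotransporters, 5 were higher and 5 lower in untreated tumours, shares near those of all genes (40.5% and 40.6%). The potassium-chloride cotransporter Slc12a7 was higher by 2.43 ± 0.15 and its neuronal relative Slc12a5 lower, at -1.80 ± 0.21. In contralateral samples at 8 d after MRT, 2 of the 12 were higher, among them Slc12a7 by 0.93 ± 0.19.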

How the data were processed

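Per the labels' protocols, RNA came from the mirVana kit, and 200 ng of it was labelled by the 3' IVT Express kit. The arrays were processed with Affymetrix Expression Console, MAS5 and RMA (BB arrays: Expression Console and RMA), per the submitters' processing notes, which give no versions. The deposited intensity values were normalized by the authors and are whole numbers from 7 to 27837, with array medians of 117 to 165. Log2 was taken of them here, where the design had assumed log2 values. Background and detection calls were not used here, and precision is limited by the number of arrays.

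Of 31099 probe sets, 57 controls, 436 with several symbols and 9780 with none were left out, and 20826 gave 14217 genes; 126 probe sets carried a Kcn symbol. The members and lists were chosen with earlier results of these data known. Group means were fitted with limma 3.58.1 in R 4.3.3 (lmFit, eBayes with trend, data.table version 1.17.8), within a tissue or, between tissues and for interactions, on all 115 arrays together, and 29 comparisons were made. Figures used Python 3.11.15, matplotlib 3.10.9, numpy 2.4.6 and pandas 2.3.3. The fits were tested on simulated data. Named genes were called genes with separate groups, up to 10 per direction between tissues and up to 6 elsewhere, and genes of known glial, immune, vascular or neuronal roles. Genes that overlap between groups, and those in 15 d comparisons outside this rule, were chosen after their values were seen.

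The rat pairs the tissues by the labels: same-rat deviations correlated over 0.1 in 38 of 55 pairs, with a median of 0.186 against -0.043 for different rats. Alternatives were other scalings (common median, quantile), no dim genes, the mean of a gene's probe sets, array weights, a neuron-marker or Gapdh covariate, only the groups compared, the rat as a replicate block and single arrays left out.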

Additional observations from a re-analysis of the deposited data

Results flagged for a closer look

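The differences between tissues came from the interaction test at 8 d, as the treatment difference in tumour minus that in contralateral samples. For MRT the highest values among called genes were Kcnk2 at 2.61 (adjusted p = 0.000854), Kcnv1 at 2.21 (0.00601), Kcna4 at 2.19 (0.00678), Kcnd2 at 2.13 (0.00707), Kcnip2 at 2.08 (0.00342) and Kcnab2 at 1.97 (0.000588). The called genes with the lowest values were Kcne3 at -2.27 (6.20e-08), Kcnj8 at -0.91 (0.00148), Kcnh6 at -0.82 (0.00642), Kcnd1 at -0.80 (0.0236) and Kcnq1 at -0.61 (0.0141). For the broad beam the called genes were Kcnab2 at 1.57 (adjusted p = 0.0432), Kcnab3 at 1.34 (0.0247), Kcnip3 at 1.23 (0.0490), Kcnh3 at 1.15 (0.0330), Kcnq5 at 0.87 (0.0250), Kcne3 at -1.96 (0.000262) and Kcnj8 at -0.95 (0.0154).

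Single arrays apart from the rest of their group were sought in 210 groups of 10 genes by the gap to the nearest array, relative to the group's range. A small gap is flagged too where the other arrays lie close together, as for Kcnk6 in rat 40 below. There were 18, where chance gives about 1 in 20 groups. In untreated tumours at 6 h rat 1 was low for Kcnk2 (7.77, others 8.98 to 9.45), Kcnma1 (7.73, others 8.84 to 9.11) and Kcnd2 (8.50, others 9.89 to 10.35), and rat 5 was high for Kcnk6 (7.11, others 6.13 to 6.39). Among untreated contralateral samples, rat 18 at 48 h was high for Kcnk13 (7.02, others 6.23 to 6.36) and low for Kcnd2 (8.42, others 10.58 to 10.90), and rat 28 at 8 d was low for Kcnk13 (5.81, others 6.19 to 6.21) and high for Kcnab2 (11.76, others 11.35 to 11.41). After MRT, the tumour of rat 42 at 15 d was high for Kcnk6 (9.47, others 7.73 to 7.99) and Kcnk13 (7.58, others 6.52 to 6.60). The contralateral MRT samples gave Kcnma1 in rat 20 at 48 h (9.47, others 9.85 to 10.14), Kcnk6 in rat 34 at 8 d (6.51, others 6.77 to 6.89), Kcnk6 in rat 40 at 15 d (6.63, others 6.67) and Kcne3 in rat 43 at 15 d (6.58, others 6.25 to 6.30). After the broad beam, the contralateral sample of rat 55 at 8 d was high for Kcnk6 (7.55, others 6.29 to 6.46) and that of rat 61 at 15 d low (6.39, others 6.57 to 6.60). The tumour of rat 61 at 15 d was high for Kcnk13 (6.92, others 6.51 to 6.57) and low for Kcnd2 (8.09, others 8.48 to 8.55).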

How the results depend on the processing

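Counts below are of called Kcn genes, against those in the report. Except where stated, the share of all genes called in each setting is not given. A changed count therefore cannot be read as particular to the Kcn genes. With arrays shifted to a common median they were 5 for BB against untreated tumours at 6 h, 4 and 1 for MRT against BB tumours at 6 h and 8 d, 17 for MRT tumours between 15 d and 8 d, and in contralateral samples 4 for MRT and 5 for MRT against BB at 6 h. Quantile normalization gave 1 and 0 for BB tumours at 6 h and 48 h and 1 for untreated contralateral samples between 8 d and 6 h. Without the dimmest 30% of genes, which leaves fewer genes to test, they were 34 between tissues, 0 and 9 for BB tumours at 48 h and 8 d, 0 for MRT against BB tumours at 6 h and at 8 d, 4 and 1 for 15 d against 8 d after MRT and BB, and in contralateral samples 7 and 5 for MRT at 48 h and 8 d, 8 and 3 for BB at 6 h and 48 h, 0, 1 and 3 for MRT against BB at 48 h, 8 d and 15 d, with 4 for the BB interaction at 8 d. Counts without the dimmest 30% are out of fewer Kcn genes, since 41 of the 75 were left out. The 34 between tissues were all the Kcn genes left. A lower count in that setting is therefore not by itself a loss of calls. The mean of probe sets gave 2 for BB and 1 for MRT against BB in contralateral samples at 8 d, and 12 for the BB interaction at 8 d. With array quality weights, whose estimation gave a convergence warning, they were 4 and 1 for MRT tumours at 6 h and 48 h, 16, 15 and 51 for BB tumours at 6 h, 48 h and 8 d, 5 and 18 for MRT against BB tumours at 6 h and 8 d, and 48 for BB tumours between 15 d and 8 d; in contralateral samples 12 and 8 for MRT at 6 h and 48 h, 25, 6 and 15 for BB at 6 h, 48 h and 8 d, 17, 4, 13 and 23 for MRT against BB at the 4 times, 4 for untreated samples over time, and 10 and 12 for the BB interaction at 6 h and 8 d. The neuron covariate gave 12 for MRT tumours at 8 d, 6 for MRT against BB at 6 h, 2 for growth and 4 for BB tumours between 15 d and 8 d. It reversed the growth differences of Kcnc2 (0.023), Kcnc1 (0.11) and Kcna2 (0.0055), none called with it. With only the groups compared in the fit, which leaves fewer samples to estimate the spread, they were 0, 2 and 3 for BB tumours at 6 h, 48 h and 8 d, 0 for MRT against BB tumours at 6 h and at 8 d, 0 for BB tumours between 15 d and 8 d, 1 and 0 for MRT and 27, 0 and 8 for BB in contralateral samples (6 h, 48 h and, for BB, 8 d), and 0, 2 and 6 for MRT against BB there at 6 h, 48 h and 8 d. Alternatives added after seeing the data gave 17 for MRT tumours and 16 for the MRT interaction at 8 d without rats 37 and 38. Of all genes, 38.9% and 28.2% were called in these 2 fits. Without rat 47 the count for BB tumours at 6 h was 5. Where no cause is named, the cause was not tested.

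With the rat as a replicate block (consensus correlation 0.157), 70 genes differed between untreated tissues, 6 higher and 64 lower, 33 and 10 in the MRT and BB interactions at 8 d and 0 in both at 6 h; no named call changed. With single arrays left out of groups of 5 or fewer, counts ranged from 65 to 70 between tissues, 32 to 38 for growth and 0 to 2 for untreated contralateral samples over time. For MRT tumours they ranged from 0 to 0 at 6 h and 48 h and 24 to 37 at 8 d (24 without untreated rat 27), and for BB tumours from 1 to 6, 0 to 2 and 3 to 25. MRT against BB tumours gave 0 to 0 at 48 h and 15 d and 0 to 4 at 8 d, and 15 d against 8 d gave 5 to 15 for MRT and 1 to 5 for BB. In contralateral samples they were 1 to 2, 6 to 36 and 3 to 7 for MRT at 6 h, 48 h and 8 d, 8 to 16, 0 to 25 and 1 to 6 for BB, and 0 to 2, 0 to 2 and 3 to 7 for MRT against BB at 48 h, 8 d and 15 d. Interactions ranged from 0 to 0 at 6 h and, at 8 d, 27 to 33 for MRT and 2 to 17 for BB. Of 97 named results, 41 lost their call without some array. Under the common median 95 of 97 and under quantile normalization 89 of 97 held theirs. With the neuron covariate 18 of the 31 named results in that fit held, 10 lost their call and 3 reversed. With only the groups compared in the fit 54 of 68 held and 14 lost their call.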
